A study of Mus musculus with 6 samples.

Results

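Interferon-stimulated genes were followed in stem cell preparations from mouse bone marrow after 3 months on control diet (CD) or on a serine/glycine-free diet (SGFD). The 46 members were chosen by symbol as genes that interferons induce, and 44 of them have a row among the 21878 rows of each table; Mx1 and Mx2 are not analysed here. Of these 44, 43 reached 1 FPKM (fragments scaled by gene length and library depth) in at least 3 of the 6 libraries and were tested; Gbp9 did not. Each diet had 3 libraries of wild-type mice kept free of specific pathogens. The sort took marrow cells without lineage markers that carried c-Kit and Sca1 but neither CD34 nor CD135 (the Flt3 protein), a gate for long-term stem cells (LT-HSCs). The labels do not say whether a library came from 1 animal or a pool, nor the strain, sex or age. The p-values therefore measure the spread between these samples, which may be partly technical.

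Interferons are secreted proteins that warn cells of infection. Type I interferons signal through the receptor of Ifnar1 and Ifnar2, the kinases Jak1 and Tyk2 and the factors Stat2 and Irf9, which belong to a complex that binds the interferon-stimulated response element (ISRE). Interferon gamma signals through Ifngr1, Ifngr2, Jak1 and Jak2, and its targets often carry the gamma-activated site (GAS). Stem cells are known to hold a set of these genes at a standing level without infection, and strong interferon signals can drive them out of rest.

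Between 18687043 and 19850032 whole fragments per library could be recovered from the deposited values, up to an unknown factor per gene, and the tested members rested on 31 to 10772 fragments each. Replicate libraries differed by 2.83 to 13.9 in chi-square per gene, above the 1 of pure counting, so none was a copy. Cd34 and Flt3, whose proteins the sort excludes, had mRNA at 471 ± 15.4 and 114 ± 1.19 FPKM with CD (SD, n = 3), so these transcripts go against the gate. No protein values are part of these data. Kit and Ly6a (Sca1), which the sort requires, had 122 and 66.7 FPKM with CD. All 4 gating transcripts fell with SGFD, by 41.3% for Kit, 20.4% for Flt3, 12.4% for Ly6a and 8.92% for Cd34. Of all tested genes 41.8% fell. On the log2 scale Cd34 stood at -0.134, beside a median of -0.131 for all tested genes. The call for Ly6a was lost after median-ratio scaling (limma, adjusted p = 0.521). The stem cell gene Hlf fell from 56.2 ± 0.759 to 21.9 ± 0.779 FPKM. The part of these genes in the results was not tested. In bulk samples, fewer cells of a type and less RNA per cell cannot be told apart.

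Most interferon-stimulated genes were lower with SGFD. Of the 43 tested, 34 fell, 3 rose (Gbp3, Lgals3bp and Bst2) and 6 did not pass an adjusted p of 0.05 (limma on log2(FPKM + 1), Benjamini-Hochberg over 10620 genes). The background was high, since 41.8% of all tested genes fell and 17.7% rose, but 79.1% of the members fell and 6.98% rose. The members were chosen with earlier results of these data known, so their difference from all tested genes is a description and no test. The median log2 fold change of the members was -0.37 and that of all tested genes -0.13, a difference of -0.24. The 3 SGFD values lay wholly below the 3 CD values for 35 members and wholly above for 4, against 45.5% and 19.6% of all tested genes. A fall of at least 0.5 on the log2 scale was found for 13 members, against 12.2% of all tested genes. For genes at a few FPKM the added 1 makes the fold smaller than that of FPKM itself. The filter admitted 1 member, Gbp6, through CD alone, so its values had to be lower with SGFD.

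**Figure D1:**
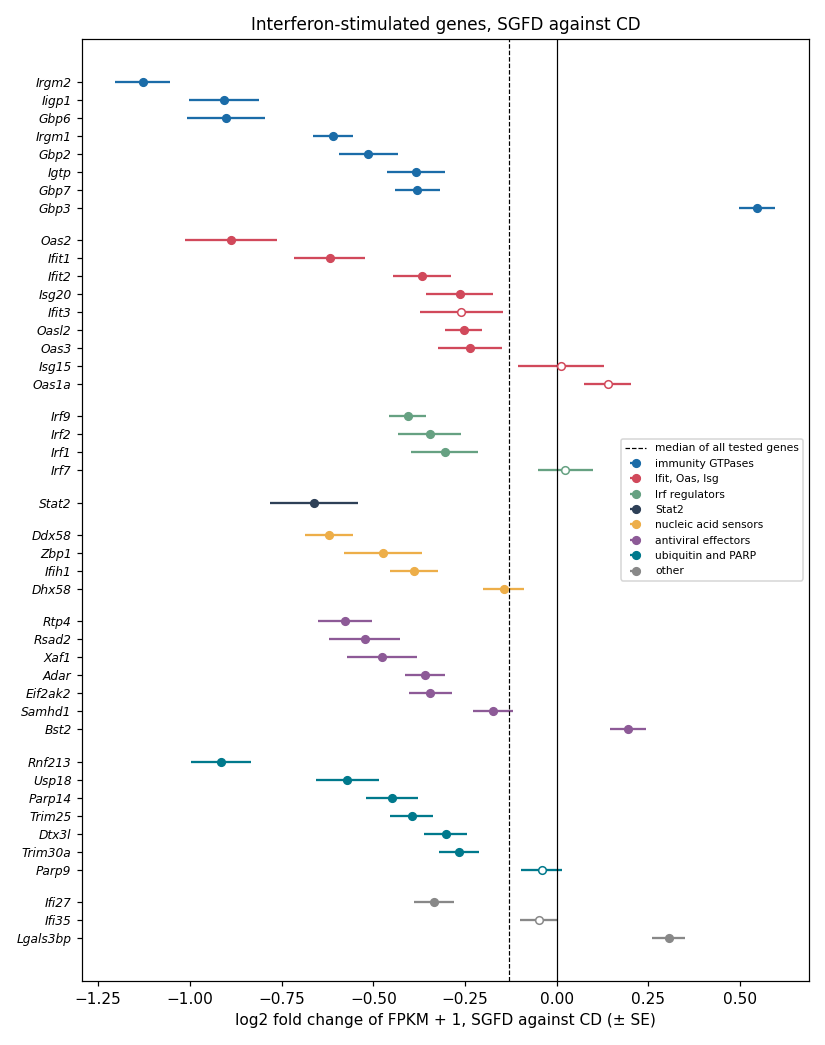
Log2 fold change of FPKM + 1, SGFD against CD, with its SE, for the 43 tested members ordered by class; filled points passed an adjusted p of 0.05 and open points did not. Most points lie left of the dashed line, the median of all tested genes (-0.13), with Irgm2 lowest at -1.13 and Gbp3 highest at 0.55.

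The libraries of each diet behaved alike for the members as a group. Against the CD mean, the median member stood at -0.35, -0.38 and -0.39 on the log2 scale in SGFD replicates 1, 2 and 3, while the median of all tested genes stood at -0.13, -0.11 and -0.15. In the 3 CD libraries the median member stayed between -0.01 and 0.00. The summed level of the tested members was 960 to 964 FPKM in CD replicates 1 and 3 and 957 in CD replicate 2, and 836, 824 and 843 FPKM in the SGFD libraries.

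The standing level of the members with CD spanned a wide range. Lgals3bp, which encodes a secreted glycoprotein that binds galectin 3, was highest at 105 FPKM, above 94.8% of tested genes, followed by Ifi27 at 93.3 FPKM and Bst2 at 80.8 FPKM. Ifit3 was lowest of those tested at 1.17 FPKM. The median member exceeded 61.7% of tested genes, so these genes were not silent in the control libraries. By contrast, transcripts of the interferons were nearly missing: of 21 ligand genes with a row, 19 were listed at 0 in every library, and the remaining Ifnz and Ifng reached at most 0.0827 FPKM.

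The immunity GTPases act against intracellular pathogens: those of the Irg family (Irgm1, Irgm2, Igtp, Iigp1) and the guanylate-binding proteins (Gbp) gather on membranes around vacuoles. Of 8 tested, 7 fell and 1, Gbp3, rose, where 41.8% of all tested genes fell and 17.7% rose. The class median was -0.56 on the log2 scale, the lowest of the classes with more than 1 tested gene. These counts include Gbp6, whose direction the filter fixed, and were the same after each of the 3 scalings between libraries. On the log2(FPKM + 1) scale Irgm2 fell most among the tested members, while Gbp6 fell by a larger share of its FPKM. Irgm2 had 11.02, 10.4 and 11.5 FPKM with CD and 4.25, 4.43 and 4.79 FPKM with SGFD. Its SGFD values were all under 5 FPKM and its CD values all above 10, a fall of 59.2% (log2 fold change -1.13 ± 0.07 SE; limma, adjusted p = 1.64e-06). Irgm1, which restrains the other Irg proteins and is known to be needed for normal stem cell renewal, had 28.3, 30.4 and 28.98 FPKM with CD and 19.3, 19.3 and 17.9 FPKM with SGFD. The diets did not overlap for Irgm1, with a log2 fold change of -0.61 ± 0.06 (SE). Iigp1, an effector that loads onto pathogen vacuoles, had 8.61, 8.08 and 7.92 FPKM with CD and 4.49, 3.995 and 3.31 FPKM with SGFD, a fall of 52.1%. Igtp, another regulatory Irg protein that shares 12.3% of its stretches of 50 bases with Irgm2, had 23.4, 23.3 and 27.2 FPKM with CD and 19.4, 16.7 and 19.8 FPKM with SGFD. Its fall was smaller, at 24.3%, and CD replicate 3 stood above the other CD libraries. The ratio of Irgm2 to Irgm1 within a library was 0.377 ± 0.0299 with CD and 0.239 ± 0.0254 with SGFD, without overlap (exact permutation test, two-sided, p = 0.1, the smallest that 3 against 3 allows).

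Guanylate-binding proteins moved in opposite directions. Gbp2 had 24.8, 27.3 and 25.7 FPKM with CD and 20.3, 15.9 and 17.6 FPKM with SGFD, and Gbp7 had 19.7, 19.2 and 18.5 FPKM with CD and 15.4, 14.2 and 13.9 FPKM with SGFD; both fell, by 30.9% and 24.3%, and Gbp7 shares 12.9% of its stretches of 50 bases with other genes. The call for Gbp7 was lost when the length trend was removed (0.149). Gbp6 was low, with 2.15, 1.91 and 2.02 FPKM with CD and 0.4905, 0.8304 and 0.564 FPKM with SGFD. No SGFD library reached 1 FPKM for Gbp6, and its fall of 69.05% rests on 46 to 201 fragments per library. Of its transcript's stretches of 50 bases, 59.7% also occur in other annotated genes, so reads may have been split between them. Gbp3 went the other way, with 18.6, 18.4 and 18.8 FPKM with CD and 28.2, 26.7 and 28.01 FPKM with SGFD. Every SGFD library was above every CD library, a rise of 48.5% (log2 fold change 0.55 ± 0.05 SE; limma, adjusted p = 1.68e-05). Gbp3 lies between Gbp7 and Gbp2 on mouse chromosome 3, with Gbp7 from 142530336 to 142550151, Gbp3 from 142560016 to 142573213 and Gbp2 from 142620663 to 142638008 (GRCm38.p6). The ratio of Gbp3 to Gbp2 within a library was 0.718 ± 0.0397 with CD and 1.55 ± 0.151 with SGFD, and that of Gbp3 to Gbp7 was 0.974 ± 0.0400 and 1.91 ± 0.0967, neither with overlap (both exact permutation, two-sided, p = 0.1, the smallest possible). These ratios add no support, since Gbp3 rose and Gbp2 and Gbp7 fell without overlap, which fixed both p-values in advance. Gbp3 shares 4.79% of its stretches of 50 bases with Gbp7. The untested Gbp9 was between 0.576 and 0.746 FPKM with CD and between 0.282 and 0.361 FPKM with SGFD.

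**Figure D2:**
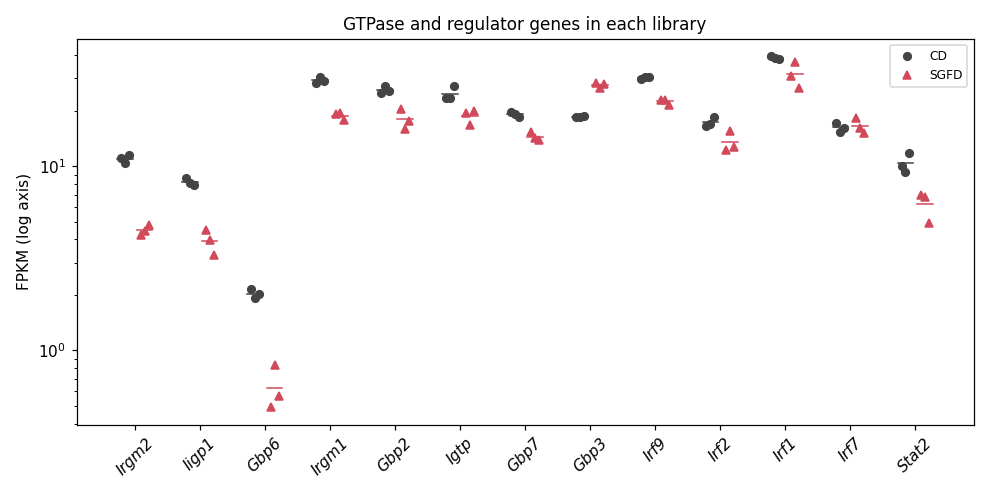
FPKM on a log axis in each CD library (circles) and SGFD library (triangles) for the 8 tested GTPase genes, the 4 Irf genes and Stat2; short lines are group means. Irgm2, Iigp1 and Gbp6 show the widest gaps, Gbp3 alone of these genes has every SGFD value above every CD value, and the diets overlap for Irf7.

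Promoters of 6 GTPase genes, and of Isg15 and Ifit1 for comparison, are shown because members that share motifs did not all move alike. The sequences are RefSeq's on GRCm38.p6, 5′ to 3′ on the gene's strand, ending at the base before the start site (for Gbp3, 28 bases earlier, where another annotated start lies), with ISRE cores and GAS cores in capitals. They span chr11:58214857-58214976 (plus strand) for Irgm2, chr11:58199436-58199555 (plus) for Igtp, chr11:48871421-48871540 (minus) for Irgm1, chr3:142620543-142620662 (plus) for Gbp2, chr3:142530216-142530335 (plus) for Gbp7, chr3:142559924-142560015 (plus) for Gbp3, chr4:156200819-156200938 (minus) for Isg15 and chr19:34640769-34640888 (plus) for Ifit1.
Irgm2: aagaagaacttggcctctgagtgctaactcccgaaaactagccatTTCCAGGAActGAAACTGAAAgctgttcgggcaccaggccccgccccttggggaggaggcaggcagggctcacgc
Igtp: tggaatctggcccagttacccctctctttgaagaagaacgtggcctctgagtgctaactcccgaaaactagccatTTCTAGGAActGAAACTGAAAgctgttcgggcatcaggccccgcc
Irgm1: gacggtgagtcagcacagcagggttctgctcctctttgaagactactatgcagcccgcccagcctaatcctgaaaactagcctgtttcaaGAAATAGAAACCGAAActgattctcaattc
Gbp2: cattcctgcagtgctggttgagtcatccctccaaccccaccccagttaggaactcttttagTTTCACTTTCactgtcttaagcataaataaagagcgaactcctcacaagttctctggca
Gbp7: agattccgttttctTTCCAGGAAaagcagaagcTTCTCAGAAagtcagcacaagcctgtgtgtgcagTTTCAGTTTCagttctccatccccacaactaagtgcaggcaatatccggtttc
Gbp3: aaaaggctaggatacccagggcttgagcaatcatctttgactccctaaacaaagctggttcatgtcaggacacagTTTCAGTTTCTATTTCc
Isg15: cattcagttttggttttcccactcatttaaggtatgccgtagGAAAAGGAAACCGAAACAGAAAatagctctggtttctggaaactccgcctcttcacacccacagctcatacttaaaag
Ifit1: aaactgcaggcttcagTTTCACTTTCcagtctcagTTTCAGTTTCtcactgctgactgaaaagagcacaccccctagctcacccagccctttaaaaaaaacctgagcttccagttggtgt

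The ISRE core searched was GAAANNGAAA or, on the other strand, TTTCNNTTTC, and the GAS core was TTCNNNGAA, which reads the same on both strands; matches of either core may overlap. RefSeq windows of 250 bases before to 50 after the start were at hand for 33 members. An ISRE core was in 19 of them, 57.6%, against 3.84% of 8278 tested genes with a window, and a GAS core in 13, 39.4%, against 8.36%. The members were chosen as interferon targets, so these shares describe the choice and are no result of the diets. Among the printed windows, Irgm2 and Igtp hold a GAS core followed, after 2 further bases, by an ISRE core; this spacing was noticed in the sequences and then counted, and it occurred in 5 of 32851 windows, those of Igtp, Irgm2, Tgtp1, Tgtp2 and Gm12185. Gbp3 holds 2 overlapping ISRE cores, 45 and 39 bases before the start site used for its window. Another annotated Gbp3 start lies 28 bases earlier, so both cores are closer to that one. Gbp7 and Gbp2 hold theirs 53 and 59 bases before their starts. The members with an ISRE core had a median log2 fold change of -0.38, with 14 of 19 lower and 2 higher, and those without had -0.30, with 11 of 14 lower and 1 higher. A match is a description and no measured binding.

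**Figure D3:**
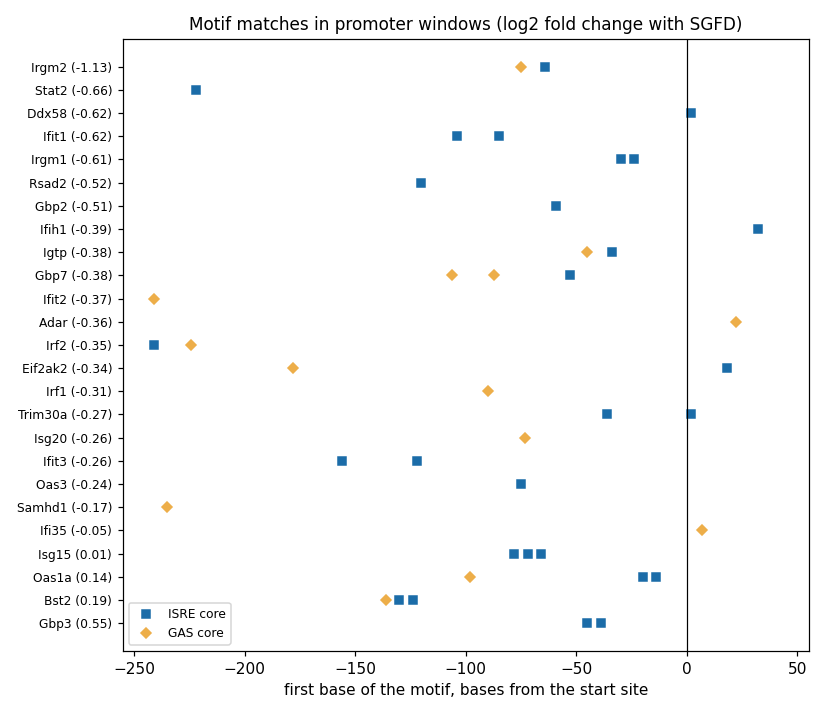
Position of ISRE cores (squares) and GAS cores (diamonds) in the promoter windows of members that hold either, as bases from the start site, ordered from the lowest log2 fold change (Irgm2, -1.13) to the highest (Gbp3, 0.55). ISRE cores lie close before the start both in Irgm2 (64 bases) and in Gbp3 (45 and 39 bases, from the start site used for its window).

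The Ifit, Oas and Isg genes encode direct antiviral proteins. Of 9 tested, 6 fell, none rose and 3 did not pass, where 41.8% of all tested genes fell and 17.7% rose. After median-ratio scaling 3 of the 9 fell and 1 rose, against 26.8% and 28.8% of all tested genes. Quantile normalization also left 3 lower and 1 higher, against 24.0% and 21.3%. Ifit proteins bind viral RNA and block its translation. Ifit1 had 5.86, 6.195 and 5.04 FPKM with CD and 3.71, 2.98 and 3.39 FPKM with SGFD, a fall of 41.05%. Ifit2 had 8.55, 8.18 and 8.41 FPKM with CD and 6.31, 5.65 and 6.90 FPKM with SGFD. The diets did not overlap for either gene; the call for Ifit2 (log2 fold change -0.37 ± 0.08 SE) did not hold after quantile normalization (adjusted p = 0.197) or removal of the length trend (0.0502). For Ifit3 the difference was -0.26 and did not pass, at 31 to 68 fragments per library. It passed as lower with array quality weights (0.0166), without the variance trend (0.0450), after scaling to a common FPKM sum (0.0277) and without SGFD replicate 2 (0.0250). Of its stretches of 50 bases 51.2% also occur in Ifit3b, so these reads may have been split as well.

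The Oas enzymes make the short oligoadenylate that turns on the antiviral nuclease RNase L. Oas2 fell most, with 10.2, 8.24 and 9.99 FPKM with CD and 4.45, 5.86 and 3.82 FPKM with SGFD. All its SGFD values were under 6 FPKM and all CD values above 8, a fall of 50.4% (log2 fold change -0.89 ± 0.13 SE; limma, adjusted p = 0.000223). Oas1a had 18.6, 21.5 and 21.4 FPKM with CD and 22.97, 22.1 and 22.8 FPKM with SGFD. Each SGFD value was above each CD value, but the difference of 0.14 on the log2 scale did not pass (limma, adjusted p = 0.0835), and it did pass after median-ratio scaling (0.00550), quantile normalization (0.0194) and with array quality weights (0.0176). Oas1a shares 57.6% of its stretches of 50 bases with Oas1g and is uncertain for that reason. Oasl2, which has an Oas-like fold with ubiquitin-like domains, fell by 16.8%, a call lost after median-ratio scaling (0.0609). Oas3 fell by 16.1% at an adjusted p of 0.0368 (limma), and this call was lost without any 1 of 5 libraries (0.0736 to 0.141), with SGFD replicate 3 as the exception, without the filter on low values (0.0728) and after quantile normalization (0.689), median-ratio scaling (0.320) or removal of the length trend (0.861). The ratio of Oas1a to Oas2 within a library was 2.19 ± 0.401 with CD and 4.97 ± 1.11 with SGFD, without overlap (exact permutation, two-sided, p = 0.1, the smallest possible). Because all SGFD values lay above CD for Oas1a and below CD for Oas2, this outcome was fixed in advance.

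Isg15, a ubiquitin-like protein attached to other proteins, had 12.9, 13.3 and 14.9 FPKM with CD and 12.7, 11.8 and 17.4 FPKM with SGFD. The diets overlapped and the log2 fold change was 0.01 ± 0.12 (SE; limma, adjusted p = 0.936). Usp18, the protease that removes Isg15 and also damps the type I receptor, had 9.49, 8.42 and 10.5 FPKM with CD and 6.37, 5.88 and 5.85 FPKM with SGFD. It fell by 36.4% in the same libraries, without overlap. Isg20, an RNA exonuclease, fell by 18.9% at an adjusted p of 0.0282 (limma), which was lost without CD replicate 1 (0.132) or SGFD replicate 2 (0.0764), without the filter on low values (0.0592) and after median-ratio scaling (0.216) or quantile normalization (0.705).

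The Irf regulators are the transcription factors that drive this program. Of 4 tested, 3 fell and Irf7 did not pass, where 41.8% of all tested genes fell. After median-ratio scaling or removal of the length trend 2 of the 4 fell, against 26.8% and 21.9% of tested genes. Irf9, the DNA-binding part of the complex with Stat2, had 29.6, 30.3 and 30.4 FPKM with CD and 23.01, 22.96 and 21.5 FPKM with SGFD. Every SGFD library was lower, by 25.3% on average (log2 fold change -0.41 ± 0.05 SE; limma, adjusted p = 9.47e-05). Its partner Stat2 had 10.02, 9.31 and 11.8 FPKM with CD and 6.94, 6.798 and 4.95 FPKM with SGFD, a fall of 40.05%, with SGFD replicate 3 lowest. Irf1, an activator that answers interferon gamma strongly, had 39.4, 38.7 and 38.3 FPKM with CD and 30.8, 36.95 and 26.7 FPKM with SGFD. SGFD replicate 2 came close to the CD libraries, and the call (limma, adjusted p = 0.0149) was lost without CD replicate 1 (0.0503), without the filter (0.0540) and after median-ratio scaling (0.115). Irf2, a repressor that competes with Irf1 and protects stem cells from chronic interferon signals, had 16.6, 16.96 and 18.6 FPKM with CD and 12.3, 15.5 and 12.8 FPKM with SGFD. Its fall of 22.3% kept its call under each other setting tried but was lost when the length trend was removed (0.0793). Irf7, the regulator that amplifies type I interferon production, had 17.1, 15.3 and 16.2 FPKM with CD and 18.3, 16.2 and 15.2 FPKM with SGFD. The diets overlapped for Irf7, with a log2 fold change of 0.02 ± 0.07 (SE; limma, adjusted p = 0.798).

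All 4 tested sensors of foreign nucleic acid fell, where 41.8% of all tested genes fell. After quantile normalization 1 of the 4 fell, against 24.0% of all tested genes. Without the length trend 2 of the 4 fell, against 21.9% of genes with a length. Ddx58 (RIG-I), which binds viral RNA ends, had 19.01, 20.4 and 18.9 FPKM with CD and 11.7, 13.2 and 12.1 FPKM with SGFD, a fall of 36.7% (limma, adjusted p = 3.55e-05). Ifih1 (MDA5), which binds long double-stranded RNA, had 9.16, 9.299 and 8.83 FPKM with CD and 6.67, 6.75 and 6.699 FPKM with SGFD. Zbp1, a sensor of Z-form nucleic acid that can trigger necroptosis, had 4.83, 4.52 and 5.01 FPKM with CD and 3.01, 2.71 and 3.87 FPKM with SGFD. None of the 3 overlapped between diets, but quantile normalization ended the calls for Ifih1 (0.0554) and Zbp1 (0.175), and removal of the length trend that for Ifih1 (0.125). Dhx58 (LGP2), a helper of Ifih1, fell by 10.1% (limma, adjusted p = 0.0461), which was lost with any 1 of 4 libraries left out, the exceptions being SGFD replicates 2 and 3, and after quantile normalization (0.741), median-ratio scaling (0.850) or removal of the length trend (0.151).

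Of 7 tested antiviral effectors, 6 fell and Bst2 rose, where 41.8% of all tested genes fell and 17.7% rose. After quantile normalization or removal of the length trend 4 of the 7 fell, against 24.0% and 21.9% of tested genes. Rtp4, a chaperone-like interferon target that shares 13.7% of its stretches of 50 bases with another gene, had 13.3, 15.6 and 15.2 FPKM with CD and 9.12, 9.72 and 9.68 FPKM with SGFD, a fall of 35.4%. Rsad2 (viperin), which makes a chain-terminating nucleotide, had 5.13, 5.57 and 6.08 FPKM with CD and 3.697, 3.11 and 3.97 FPKM with SGFD. Xaf1, a death-promoting binding partner of XIAP, had 5.103, 6.26 and 6.26 FPKM with CD and 3.93, 4.26 and 3.598 FPKM with SGFD. These 3 genes fell by about the same share, 35.4%, 35.8% and 33.1%; quantile normalization ended the calls for Rsad2 (0.0629) and Xaf1 (0.0715). Adar, which edits adenosine in double-stranded RNA and keeps the cell's own RNA from being sensed, had 24.02, 23.5 and 23.8 FPKM with CD and 18.4, 19.1 and 17.5 FPKM with SGFD. Eif2ak2 (PKR), which halts translation on double-stranded RNA, had 19.8, 20.7 and 22.1 FPKM with CD and 16.4, 15.9 and 16.3 FPKM with SGFD. Both fell by over 22%, without overlap, and the call for Adar was lost when the length trend was removed (0.197). Samhd1, a nuclease that lowers the nucleotide pool, fell by 11.7%; this was lost without CD replicate 2 (0.0840) and after median-ratio scaling (0.598) or removal of the length trend (0.865). Bst2 (tetherin), which holds budding virus on the cell surface, had 82.4, 79.2 and 80.8 FPKM with CD and 88.3, 90.6 and 99.05 FPKM with SGFD. All SGFD values were above all CD values (log2 fold change 0.19 ± 0.05 SE; limma, adjusted p = 0.00602), but Bst2 did not pass after quantile normalization (0.141), scaling to a common FPKM sum (0.306) or removal of the length trend (0.546).

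Genes of ubiquitin and ADP-ribose transfer fell in 6 of 7 cases, where 41.8% of all tested genes fell. Without the length trend 2 of the 7 fell, against 21.9% of genes with a length. Rnf213, a very large ubiquitin ligase that coats bacteria, had 33.2, 30.8 and 32.7 FPKM with CD and 15.8, 19.3 and 15 FPKM with SGFD. It fell by 48.2% (log2 fold change -0.92 ± 0.08 SE; limma, adjusted p = 1.44e-05), the SGFD libraries all under 20 FPKM and the CD libraries all above 30. Parp14, which transfers ADP-ribose, had 9.53, 8.94 and 8.97 FPKM with CD and 6.28, 6.83 and 6.21 FPKM with SGFD. Trim25, the ligase that activates Ddx58, had 25.5, 23.1 and 23.8 FPKM with CD and 17.4, 18.8 and 18.2 FPKM with SGFD. Dtx3l, the ligase that pairs with Parp9, had 21.2, 21.3 and 22.3 FPKM with CD and 17.6, 16.2 and 18.1 FPKM with SGFD, whereas Parp9 stood at -0.04 ± 0.06 (SE) on the log2 scale, overlapped between diets and did not pass (limma, adjusted p = 0.539). For Parp14, Trim25 and Dtx3l every SGFD library lay below every CD library. Trim30a, a ligase that restrains inflammatory signals, fell by 17.6%. The calls for Parp14 (0.199), Trim25 (0.0780), Dtx3l (0.550) and Trim30a (0.107) did not hold when the length trend was removed, and that for Trim30a was also lost after median-ratio scaling (0.0654). Parp9 passed as lower after scaling to a common FPKM sum (0.0152).

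Of the remaining members, Ifi27, a mitochondrial and nuclear membrane protein, had 96.2, 87.5 and 96.3 FPKM with CD and 76.2, 68.99 and 76.1 FPKM with SGFD, a fall of 20.97%. Lgals3bp had 106, 108 and 101 FPKM with CD and 132, 123 and 135 FPKM with SGFD. It rose by 23.8% without overlap (log2 fold change 0.30 ± 0.05 SE; limma, adjusted p = 0.000322), and, with Gbp3, it kept its call in all 17 alternatives that refit single genes. Ifi35 did not pass, at -0.05 ± 0.05 (SE) on the log2 scale, but passed as lower after scaling to a common FPKM sum (0.0122). The 16 members lower in each of those 17 alternatives that tested them (Gbp6 was below the filter of 5 FPKM) were Ddx58, Eif2ak2, Gbp2, Gbp6, Ifi27, Ifit1, Igtp, Iigp1, Irf9, Irgm1, Irgm2, Oas2, Rnf213, Rtp4, Stat2 and Usp18. Among these, Gbp6 passed the main filter through CD alone, which fixed its direction.

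Transcript length moved with the fold changes of all genes. In 10 bins of the longest annotated transcript, the median log2 fold change went from 0.13 in the shortest bin (median 1046 bases) to -0.38 in the longest (median 8107 bases). The members were of ordinary length, with a median of 3528 bases against 3378 for all tested genes, and 37 of 43 stood below the median of their own length bin, against 50.0% of tested genes with a length. After the trend on length was removed from each library, 22 members fell and 2, Gbp3 and Lgals3bp, rose, while 21.9% of 10286 genes fell and 25.9% rose; the median member then stood at -0.21 and the median gene at 0.00. Of the GTPases 6 of 8 still fell.

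**Figure D4:**
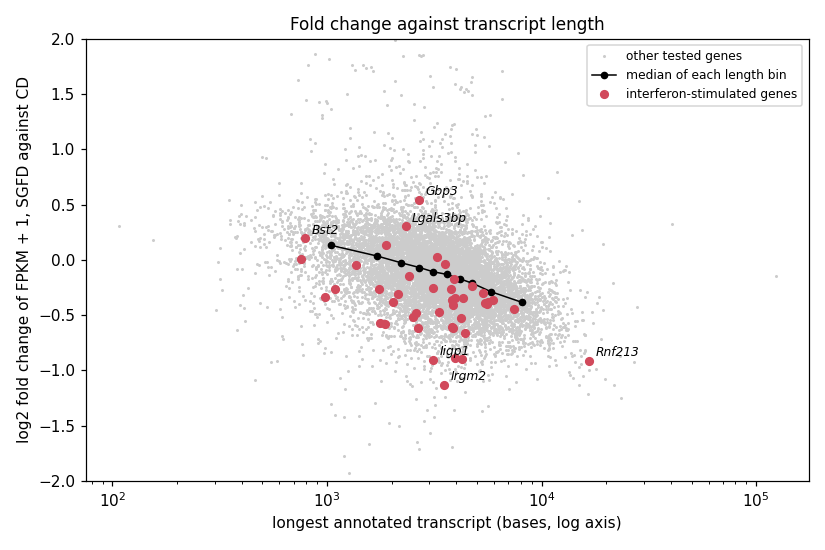
Log2 fold change of FPKM + 1 against the longest annotated transcript (log axis) for tested genes (grey), with the median of 10 length bins (black line) and the members (red); 20 genes beyond ± 2 are not drawn. Most members lie below the line at their own length, Rnf213 far to the right and Gbp3, Lgals3bp and Bst2 above the line.

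Scaling between libraries shifted all genes. After median-ratio scaling the median of all tested genes moved from -0.13 to -0.01 and that of the members from -0.37 to -0.24; 27 members fell and 4 rose, against 26.8% and 28.8% of all tested genes. After quantile normalization 26 fell and 3 rose, against 24.0% and 21.3%, and after scaling to a common FPKM sum 37 fell and 2 rose, against 59.6% and 9.72%. Over all tested genes the calls split into 1875 higher and 4438 lower as deposited, and into 3054 higher and 2844 lower after median-ratio scaling.

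Lists of ligands, receptors and signalling genes, brakes, other Irf factors, inducers, other GTPases and further interferon-stimulated genes gave the other pathway genes. Of the 129 genes in these lists 87 were tested, none of them among the 21 ligand genes. Of the 87, 47 fell (54.0%) and 15 rose (17.2%), against 41.8% and 17.7% of all tested genes. Like the members, these lists were chosen with results of the data known. Other GTPases fell in 6 of 6 cases (5 of 6 after quantile normalization), at a median of -0.76 on the log2 scale. Tgtp1 went from 12.6 ± 0.317 to 5.88 ± 0.573 FPKM, Tgtp2 from 27.9 ± 1.94 to 15.8 ± 1.25 FPKM, Gvin1 from 2.95 ± 0.1902 to 1.36 ± 0.183 FPKM and Gbp8 from 1.23 ± 0.255 to 0.154 ± 0.114 FPKM; the filter admitted Gbp8 through CD alone. Of 43 further interferon-stimulated genes 27 fell and 5 rose, with a median of -0.42; after median-ratio scaling 23 fell and 9 rose. The 4 of smallest p were Slfn8 (from 13.8 ± 0.411 to 7.11 ± 0.358 FPKM), Ifi203 (from 45.5 ± 0.433 to 30.9 ± 1.43 FPKM), Herc6, a ligase for Isg15 (from 8.09 ± 0.535 to 4.103 ± 0.176 FPKM), and Shisa5 (from 87.6 ± 2.06 to 61.96 ± 3.12 FPKM).

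Among 9 tested receptor and signalling genes 6 fell and 1 rose, against 41.8% and 17.7% of all tested genes. When the length trend was removed 3 of the 9 fell and 1 rose, against 21.9% and 25.9% of genes with a length. Jak2 fell from 10.5 ± 0.111 to 7.08 ± 0.723 FPKM, Jak1 from 70.3 ± 0.471 to 54.9 ± 2.403 FPKM and Il10rb from 32.02 ± 1.11 to 25.7 ± 1.03 FPKM, though Jak1 did not pass when the length trend was removed. Among the receptor genes, Ifnar1 fell from 14.3 ± 0.437 to 12.2 ± 0.389 FPKM. Its call was lost after median-ratio scaling, quantile normalization and removal of the length trend. Ifngr2 rose from 9.199 ± 0.354 to 11.02 ± 0.861 FPKM, a call lost after scaling to a common FPKM sum. Ifnar2 (from 30.7 ± 0.941 to 27.98 ± 1.32 FPKM) and Ifngr1 (from 49.4 ± 3.41 to 54.2 ± 4.68 FPKM) did not pass as deposited; Ifnar2 passed as lower after scaling to a common FPKM sum (0.00107), and Ifngr1 as higher after median-ratio scaling (0.00618). Of 14 listed genes that restrain the pathway 5 rose and 1, Pias1, fell, against 17.7% and 41.8% of all tested genes. Quantile normalization (0.113) and removal of the length trend (0.292) ended the call for Pias1. After scaling to a common FPKM sum 4 of the 14 rose and 5 fell. Usp18, Irf2 and Adar, which also restrain the pathway and fell, are counted among the members, so the count of brakes depends on this sorting. Socs3, an inhibitor of JAK kinases that many cytokines induce, rose from 30.6 ± 0.909 to 83.4 ± 8.07 FPKM, and Irf2bpl from 6.33 ± 0.167 to 11.2 ± 0.441 FPKM; Rnaseh2c and Rnaseh2a, subunits of the nuclease that clears RNA from DNA, rose from 73.6 ± 1.21 to 94.6 ± 0.635 FPKM and from 28.4 ± 1.38 to 35.9 ± 2.54 FPKM. Irf8, the factor of monocyte fate, rose from 28.6 ± 0.945 to 43.3 ± 0.616 FPKM, while Irf5 fell from 7.95 ± 0.284 to 6.46 ± 0.1099 FPKM and Irf3 (from 34.4 ± 3.13 to 31.1 ± 2.06 FPKM) did not pass; the call for Irf5 was lost after quantile normalization and median-ratio scaling. The ratio of Irf8 to Irf9 within a library was 0.949 ± 0.0401 with CD and 1.93 ± 0.0524 with SGFD (exact permutation, two-sided, p = 0.1, the smallest possible). Since Irf8 rose and Irf9 fell without overlap between diets, this p-value was fixed in advance. Of 11 inducers 5 fell (45.5%) and 3 rose (27.3%), against 41.8% and 17.7% of all tested genes. Unc93b1, which carries Toll-like receptors to endosomes, and the adaptor Myd88 were higher, and the kinase Ikbke and Traf3 were lower. Traf3 did not pass when the length trend was removed (0.182).

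**Figure D5:**
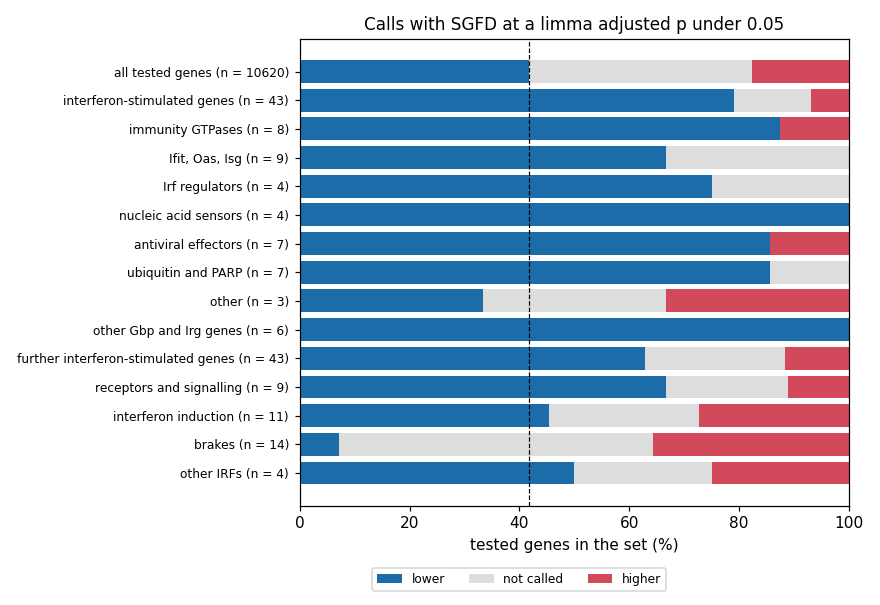
Share of tested genes called lower (blue), not called (grey) or higher (red) with SGFD in each class of members and each pathway list, with the number tested; the dashed line marks the 41.8% of all tested genes that fell. The members as a whole (79.1% lower) and the other GTPases (6 of 6 lower) extend past the line, and the brakes (1 of 14 lower) stay short of it. Usp18, Irf2 and Adar, which also restrain the pathway and fell, are counted among the members and not the brakes.

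Marker genes of other cell types moved in the same libraries, where 41.8% of all tested genes fell and 17.7% rose. Macrophage markers summed to 19.1 to 21.4 FPKM with CD and 4.61 to 5.42 FPKM with SGFD, and the 8 tested of 12 fell, but 6 of these passed the filter through CD alone, where they were high, so that count was largely set by the filter; Hmox1, the most abundant, went from 5.69 ± 0.237 to 1.11 ± 0.136 FPKM. Monocyte markers summed to 196 to 207 FPKM with CD and 345 to 375 FPKM with SGFD, with 9 of 11 tested higher, 2 of the 11 tested through SGFD alone. Neutrophil markers summed to 13.4 to 13.6 and 41.3 to 44.95 FPKM, with 7 of 7 tested higher, of which 4 passed the filter through SGFD alone and so had to be higher. Plasmacytoid dendritic cells are strong makers of type I interferon; their list summed to 35.2 to 37.8 and 35.9 to 37.8 FPKM, 2 of 5 tested rose and 3 fell (Ccr9, 1 of the 3, passed the filter through CD alone), and the defining Siglech stayed at or under 0.353 FPKM in every library. B cell markers summed to 27.8 to 37.2 and 25.5 to 26.4 FPKM, with 3 of 4 tested lower, 2 of them through the filter by CD alone, and erythroid markers to 223 to 229 and 103 to 107 FPKM, with 4 of 5 lower. T and NK markers summed to 106 to 111 and 125 to 144 FPKM, of which Nkg7 made up nearly all, with Cd3e listed at 0 in every library. LT-HSC markers summed to 263 to 264 and 146 to 155 FPKM, with 9 of 11 tested lower. The part of these cell types in the fall of the interferon-stimulated genes was not tested.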

How the data were processed

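Per the labels' protocols, RNA of the sorted cells went into a strand-marking mRNA kit. StringTie, HISAT2 and fastp are named in the submitters' processing notes, with mm10 (GRCm38) as the build and no versions. The authors deposited 1 table of 21878 rows for each library, with expression as FPKM, normalized by gene length and depth; the unit was inferred from the values. Fragments were recovered, up to a factor per gene, for 100% of the 15509 genes above 0. Their values stood in whole-number ratios across libraries within 0.005 fragments, and 0 of 300 perturbed genes passed. A gene above 0 in a single library passes by construction. The perturbed genes were all above 0 in every library, so they do not check genes above 0 in only a few. Count tests were not used.

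After a filter of 1 FPKM in 3 or more libraries, limma 3.58.1 (R 4.3.3) was run on log2(FPKM + 1) (trend and robust settings, two-sided, Benjamini-Hochberg, threshold 0.05). The method was also run on simulated data in which few genes changed, in both directions and without a length trend. That simulation cannot show how calls behave where 59.4% of tested genes are called, as here. Lists are described by counts and medians beside all tested genes. Places and promoters are RefSeq's (GRCm38.p6), and transcript lengths are GENCODE's, found for 96.9% of tested genes. The members and lists were chosen with earlier results of these data known. The text names every member with a row, with values per library for those called with a log2 change of at least 0.3 and for all tested GTPase and Irf genes (a few others were added after their values were seen, among them Siglech and Cd3e), up to 4 genes of smallest p per pathway list plus the receptors, and abundant markers; some genes that this rule covers are not reported here. Alternatives covered filters, pseudocounts, scalings, weights, the variance model, a replicate block, leaving out each library and thresholds; removal of the length trend was chosen after seeing the data.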

Additional observations from a re-analysis of the deposited data

How the results depend on the processing

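Results here are counts of calls unless stated. Interferon-stimulated genes fell in 26 to 37 cases under the filters, scalings, models, thresholds and left-out libraries tried and in 22 when the trend on transcript length was removed, the only alternative that moved this count by over 1.5 times; they rose in 2 to 4 cases. After median-ratio scaling all tested genes split into 3054 higher and 2844 lower, and the Ifit, Oas and Isg genes into 1 higher and 3 lower. After quantile normalization 2552 of all tested genes were lower, and the Ifit, Oas and Isg genes had 1 higher and 3 lower. Scaling to a common FPKM sum left 1032 of all tested genes and 8 genes of the pathway lists higher. Array quality weights gave 1 Ifit, Oas or Isg gene higher. Requiring a log2 fold change of at least 0.3 left 944 for all tested genes called higher, and 3 Ifit, Oas and Isg genes lower. Without the length trend 2256 of the tested genes with a length were lower, and the median over all 10286 stood at 0.0011 on the log2 scale. The cause of these shifts was not tested.

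Only members that did not pass changed sign. Isg15 stood at -0.127 after scaling to a common sum, -0.0596 with array weights and -0.153 without the length trend. It stood at -0.0259 without CD replicate 1, -0.00791 without CD replicate 2 and -0.144 without SGFD replicate 3, but at 0.114 without SGFD replicate 2. Irf7 stood at -0.115 after scaling to a common sum, -0.0139 without CD replicate 2 and -0.0456 without SGFD replicate 1, but at 0.0803 without SGFD replicate 3. Parp9 stood at 0.0914 after median-ratio scaling, 0.0507 after quantile normalization and 0.0924 without the length trend, and Ifi35 at 0.0849 after median-ratio scaling. With any 1 library left out, 29 to 34 members fell and 3 rose.

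The replicate numbers are shared by the diets in the labels, but same-numbered libraries did not deviate together (correlations of -0.01, -0.23 and -0.13), and no library correlated best with its own number. With the replicate number as a block 32 members fell and 3 rose, with 4087 for all tested genes called lower and 1706 for all tested genes called higher; the calls for Oas3 (0.0552) and Dhx58 (0.0926) were lost. Depth limits Ifit3, Gbp6 and Gbp9 most, at 201 or fewer fragments per library, and fragment counts cover counting error only.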

Other observations

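Outside the members and the pathway lists, 278 tested genes hold an ISRE core in their promoter window. Of these 122 fell (43.9%) and 64 rose (23.0%), and the median was -0.14 on the log2 scale; of 7898 such genes without the core 41.5% fell and 17.5% rose, with a median of -0.13. For the GAS core, 284 of 666 genes fell (42.6%) and 125 rose (18.8%), against 41.5% and 17.6% of 7510 genes without it. No test was made of these shares, and the longest transcripts of genes with and without the ISRE core had medians of 3300 and 3390 bases.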
